A study of Mus musculus with 20 samples.

Results

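The collagen and laminin genes were taken as the protein-coding genes whose symbol starts with Col, a number, the letter a and a further number, or with Lama, Lamb or Lamc and a number. The letters matched 56 of the 55471 genes counted. Among these, Col4a3bp encodes a ceramide transfer protein and no collagen, and it was left out. The 55 genes that remained comprised 6 chains of the basement membrane collagen type IV, 11 laminin chains, 2 multiplexins, which sit in or beside basement membranes, and 11 fibrillar collagens. The others were 9 fibril-associated collagens, 6 chains of the beaded filaments of type VI, 4 collagens of other networks and anchoring fibrils, 4 transmembrane collagens and 2 that fall in none of these classes. All but Col10a1 passed the filter on low counts, so that 54 genes were tested.

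The RNA came from hypothalamus slices of wild-type C57BL/6 mice, a strain and genotype that the 3 groups share. The control group, labelled CON_Ad.lib, held 7 libraries from mice that ate a control diet ad libitum. The group labelled RISP_Ad.lib held 7 libraries from mice that ate a risperidone diet ad libitum, and the group labelled RISP_PF held 6 libraries from mice pair-fed the risperidone diet, both for 4 weeks. Risperidone is a drug against psychosis that blocks receptors of dopamine and serotonin, and in pair-feeding the food offered is matched to the intake of another group. The labels used here give no age, and they state no difference in body weight from the control diet without making clear which feeding condition is meant. Nor do they say that the libraries of a group came from different mice. The p-values therefore rest on variation among libraries that could be technical.

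Collagens are helical proteins that are secreted and built into the extracellular matrix. Type IV collagen forms a sheet that is linked to a sheet of laminin, and in the brain this basement membrane wraps every capillary and lies under the pia. Fibrillar collagens form cables instead, and in the brain those of types I and III are made mainly by fibroblasts of the meninges and of the spaces around larger vessels.

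Total counts were 17316043 to 18606543 in 19 libraries, and RISP_Ad.lib library 3 held 9748005. The collagen and laminin genes took 0.0695% to 0.108% of the counts of a library. Within the RISP_Ad.lib group, pairs that held library 3 differed most, with a chi-square per degree of freedom of 244 to 326. Library 1 with the remaining libraries had 37.7 to 47.8, and all other pairs of the group 4.40 to 19.1. RISP_Ad.lib library 1 stood apart in a set of region markers: its 6 markers of cortex and hippocampus neurons had a mean log2 CPM of 5.06, against 0.56 to 2.32 in the other 19 libraries. The 9 hypothalamus markers, among them Nkx2-1 and Hcrt, were counted in every library, with a mean log2 CPM of 4.88 to 6.20. CPM are counts of a gene scaled to the size of its library, with TMM factors, and levels of different genes are compared only per kilobase of merged exons.

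Col4a2, a chain of the vessel basement membrane, stood first in control hypothalamus. It had the highest level per length of merged exons among the 55 genes, at 17.5 ± 0.954 CPM per kb (SD, n = 7). Its partner Col4a1, with which it forms the common type IV network of vessel walls, had 8.25 ± 0.402 CPM per kb and overlapped within the SD with the transmembrane collagens Col23a1, at 8.93 ± 0.623, and Col25a1, at 8.29 ± 0.748. Among the laminins, Lamb2, a beta chain of mature basement membranes, had 7.18 ± 0.993 CPM per kb, and Lamc1, the gamma chain of most laminins, had 5.39 ± 0.523. Lamb1 followed with 1.73 CPM per kb, and none of the laminin chains after it was higher. The alpha chains, which give each laminin its cell-binding end, were all low: Lama1, known from the pial basement membrane, had 1.35 ± 0.178, and Lama5, known from endothelium, had 1.27 ± 0.0969 CPM per kb. The other type IV chains, Col4a3 to Col4a6, lay between 0.203 and 1.30 CPM per kb.

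**Figure D1:**
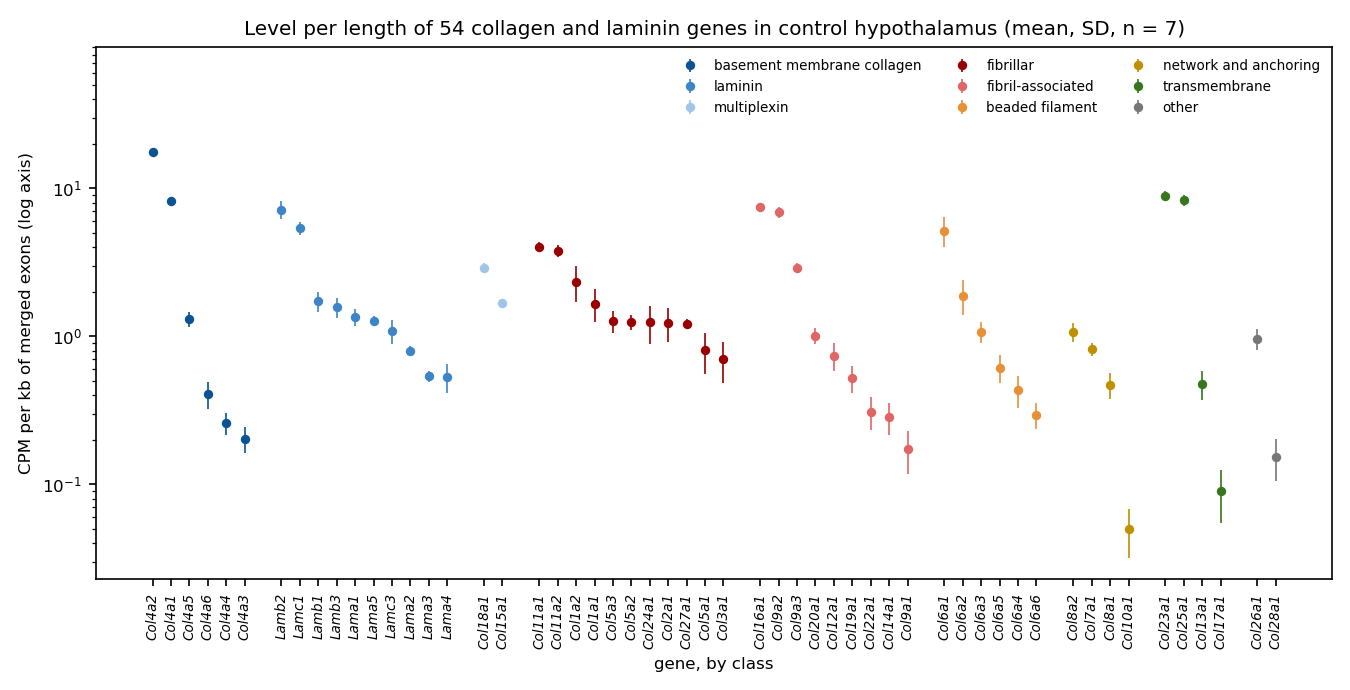
Level of 54 of the collagen and laminin genes in the 7 control libraries, as CPM per kb of merged exons on a log axis, grouped by class. Points are means and bars are SD; Col4a2 lies highest at 17.5 and Col10a1 lowest at 0.0499 CPM per kb.

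The 3 leading fibrillar collagens lay below Col4a2, Col4a1, Lamb2 and Lamc1 per length of exons and above the other type IV and laminin chains. Col11a1 came first with 4.02 ± 0.295 CPM per kb (SD, n = 7), ahead of Col11a2 with 3.77 ± 0.358, which overlapped it within the SD; these chains are best known from cartilage, where they sit inside fibrils. The chains of type I collagen, the main cable of fibrous tissue, followed with 2.33 ± 0.635 CPM per kb for Col1a2 and 1.65 ± 0.416 for Col1a1. The remaining 7 fibrillar genes lay between 0.698 and 1.27 CPM per kb, with Col3a1, the chain of type III collagen, lowest. Of each further class the highest gene was Col16a1 among the fibril-associated collagens (7.41 CPM per kb), Col6a1 in type VI (5.18), Col18a1, the source of endostatin, among the multiplexins (2.90), Col8a2 among networks (1.07), and Col26a1 in the last class (0.964). Col10a1, which marks maturing cartilage, had 0 to 34 counts in a library, with the highest count in RISP_Ad.lib library 1. Its exons overlap those of Nt5dc1, which is read from the other strand, and its counts are therefore uncertain.

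The order at the top depended on the length used. Per kilobase of the longest coding sequence, a setting added after the data were seen, Col25a1 led with 53.7 CPM per kb, followed by Col23a1 with 32.1, Col4a2 with 22.6 and Col4a1 with 12.3. Both transmembrane collagens have short coding sequences, of 2.0 kb in Col25a1 and 1.6 kb in Col23a1, within 12.9 kb and 5.74 kb of exons. Col25a1 was named after its values were seen. Lamb2 with 8.09 and Lamc1 with 9.25 CPM per kb changed places on this scale. Of the fibrillar chains, Col11a1 with 9.46 CPM per kb lay above both, and Col1a2 with 7.04 and Col11a2 with 4.98 lay below.

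Libraries lay close together in the main type IV chains and far apart in several fibrillar chains. Col4a1 ranged from 56.8 CPM over a median of 61.7 to 64.6 in control, from 55.05 over 64.0 to 67.7 in the ad libitum risperidone group and from 54.8 over 59.3 to 64.0 in the pair-fed group. Its highest library was 1.24 times its lowest, and all 3 groups overlapped. Col4a2 was as steady: 108 to 125 CPM in control, 101 to 123 on risperidone ad libitum and 101 to 121 in pair-feeding, or 1.25 times from lowest to highest.

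The fibrillar chains were not. Col1a2 ranged from 13.8 CPM over a median of 32.4 to 38.1 in control, from 13.0 over 18.7 to 33.1 on risperidone ad libitum and from 12.3 over 29.1 to 38.9 in pair-feeding, a span of 3.16 times over the 20 libraries. Col1a1 spanned 3.05 times, from 5.26 over 11.4 to 13.3 CPM in control, from 5.34 over 6.52 to 13.8 on risperidone ad libitum and from 4.70 over 11.6 to 14.3 in pair-feeding. Col3a1, named after its values were seen, spanned 4.52 times, from 3.08 over 7.52 to 8.999 CPM in control, from 2.36 over 4.38 to 10.7 on risperidone ad libitum and from 3.32 over 7.55 to 9.85 in pair-feeding. In each of these genes the 3 groups overlapped. In Col1a1, RISP_Ad.lib libraries 3 and 5 had 12.4 and 13.8 CPM, above the control median. For Col3a1, 6 of 7 ad libitum risperidone libraries lay at or below 5.07 CPM and 6 of 7 control libraries at or above 5.11. This cut was set after the values were seen, and the pair-fed libraries lay on both sides of it. RISP_Ad.lib library 5 had 10.7 CPM of Col3a1 and control library 7 had 3.08. For Col1a2, RISP_Ad.lib library 5 had 33.1 CPM and the others of its group at most 23.9.

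Within groups, the pooled SD of log2 CPM was 0.0947 in Col4a1 and 0.0933 in Col4a2, against 0.565 in Col1a1, 0.524 in Col1a2 and 0.624 in Col3a1, and the median over all 17893 genes tested was 0.159. By class the median SD was 0.187 in type IV chains, 0.216 in laminins, 0.301 in fibrillar collagens and 0.342 in type VI. Wide spread was no rule for fibrillar genes: Col27a1 spanned 1.44 times and Col11a2 1.57 times. Col17a1 spanned 4.01 times at 4 to 16 counts a library, and Col1a2 had at least 170 counts in each.

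**Figure D2:**
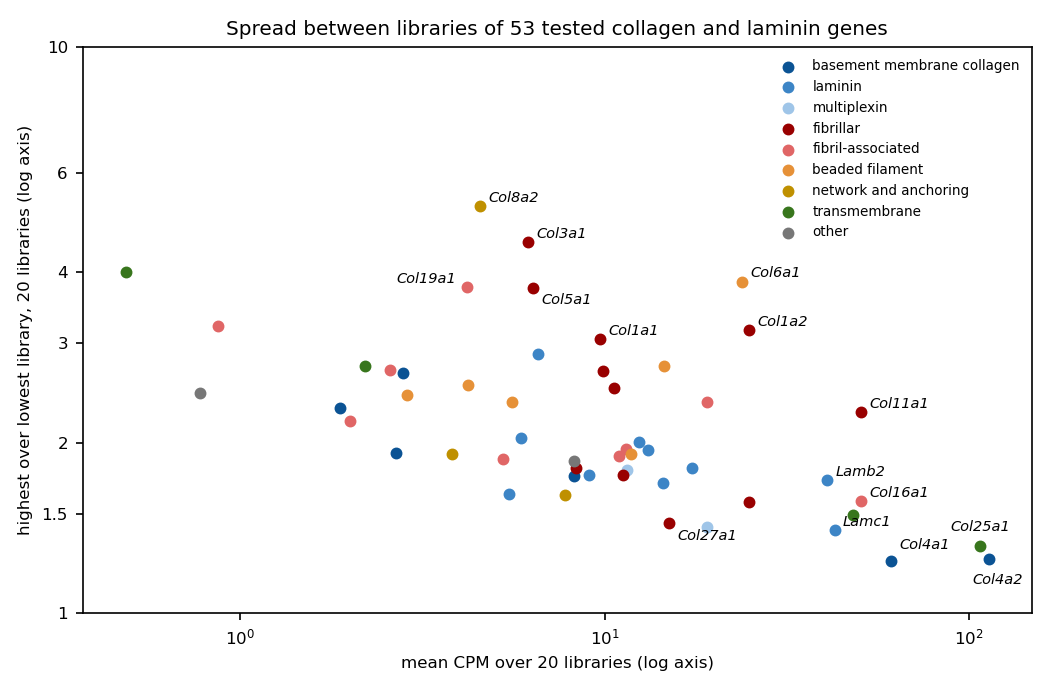
Highest over lowest of 20 libraries (log axis) against the mean CPM over 20 libraries (log axis) for 53 tested genes, coloured by class. Col1a2 and Col6a1 lie above other genes of their level, at 3.16 and 3.85 (Col6a1 at 2.20 without RISP_Ad.lib library 1), and Col4a1 and Col4a2 lie low, at 1.24 and 1.25.

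In several genes the low libraries were the same ones. Control library 7, RISP_Ad.lib libraries 1 and 7 and RISP_PF library 3 were the 4 lowest of 20 for Col1a2, at 13.8, 14.5, 13.0 and 12.3 CPM, and also for Col8a2, a chain of a network under the corneal endothelium. In Col1a1, Col3a1, Col5a1, Col5a2, Col6a1, Col6a2, Lama1, Lamb2 and Lamc1, 3 of those 4 libraries were among the 4 lowest. The same 4 libraries had the lowest mean log2 CPM over 16 markers of meningeal and perivascular fibroblasts, at 1.04, 2.21, 0.98 and 1.31, against 2.34 to 3.91 in the other 16. The cut at 4 libraries was not planned beforehand. RISP_Ad.lib libraries 6 and 2 followed closely, at 2.34 each, and the wider step was from 1.31 to 2.21. All 4 lowest libraries were shared in 3.70% of the 54 genes and 0.408% of all genes tested, and 3 of 4 in 16.7% and 3.35%. These values describe which libraries were low, and the part of the fibroblast markers in the result was not tested. In bulk RNA, fewer cells of a type and less RNA per cell cannot be told apart.

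**Figure D3:**
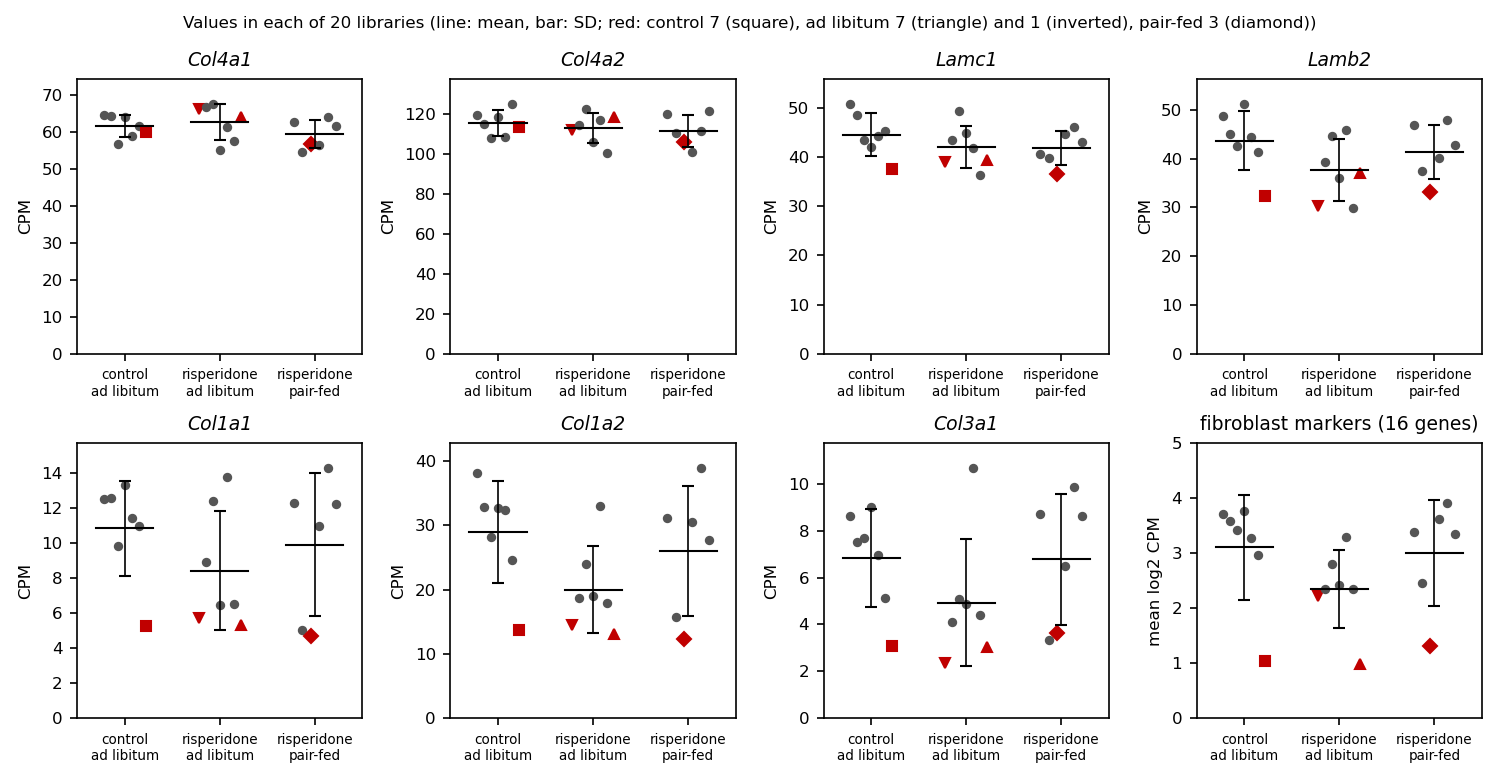
CPM in each library of Col4a1, Col4a2, Lamc1, Lamb2, Col1a1, Col1a2 and Col3a1, and the mean log2 CPM of 16 fibroblast markers, by group; lines are means and bars SD. The 4 libraries in red, lowest for the markers, are spread among the others in Col4a1 and Col4a2 and lie at the bottom in Col1a2, between 12.3 and 14.5 CPM.

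RISP_Ad.lib library 1 was the lowest of 20 for 18 of the 54 genes and the highest for 7, while it was lowest for 16.4% and highest for 19.6% of all genes tested. The shallow RISP_Ad.lib library 3 was the highest for 6 of the 54, among them Lama1, Lama2, Lama3, Lama5 and Lamc3, and the lowest for 1. It was the highest for 21.2% and the lowest for 19.9% of all genes. Its TMM factor was 0.731, against 0.940 to 1.05 in the other libraries. Before scaling, the collagen and laminin genes took 0.0695% of its counts, the lowest share of 20. After scaling, its type IV and laminin genes summed to 411 CPM, the highest of 20. The part of the scaling in these values was not tested.

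The summed fibroblast markers ranged from 65.7 over a median of 243 to 310 CPM in control, from 57.5 over 123 to 232 on risperidone ad libitum and from 66.2 over 240 to 347 in pair-feeding. Of the 16 markers only Igf2 was at 0 in a library, in 1 of 20, while Dcn had at least 15.3 CPM and Fmod at least 3.09. The 12 endothelial markers were steadier, with sums of 223 to 260, 208 to 266 and 225 to 269 CPM, and all were counted in every library. The 10 pericyte markers summed to 197 to 251, 188 to 255 and 194 to 262 CPM.

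Ratios of chains that share a molecule do not depend on how a library was scaled, since both genes have the same factor. Col4a1 over Col4a2, in CPM, lay between 0.493 and 0.591 in the 20 libraries, a span of 1.20 times, against 1.24 and 1.25 in the genes alone. Col1a1 over Col1a2 lay between 0.320 and 0.518, a span of 1.62 times, against 3.05 and 3.16 in the genes alone. Other pairs of collagen chains held less closely. Col4a3 over Col4a4 spanned 2.29 times, at 12 to 56 counts of Col4a3 a library, Col4a5 over Col4a6 2.32 times and Col9a2 over Col9a3 2.26 times. In type VI, Col6a1 over Col6a2 spanned 2.47 times, with 3.20 in RISP_Ad.lib library 1 and a control mean of 1.47 ± 0.114. Without that library it spanned 1.90 times. Lamb1 over Lamb2, beta chains that replace each other in laminins, spanned 2.71 times, from 0.308 to 0.834, and 1.74 times without RISP_Ad.lib library 1.

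**Figure D4:**
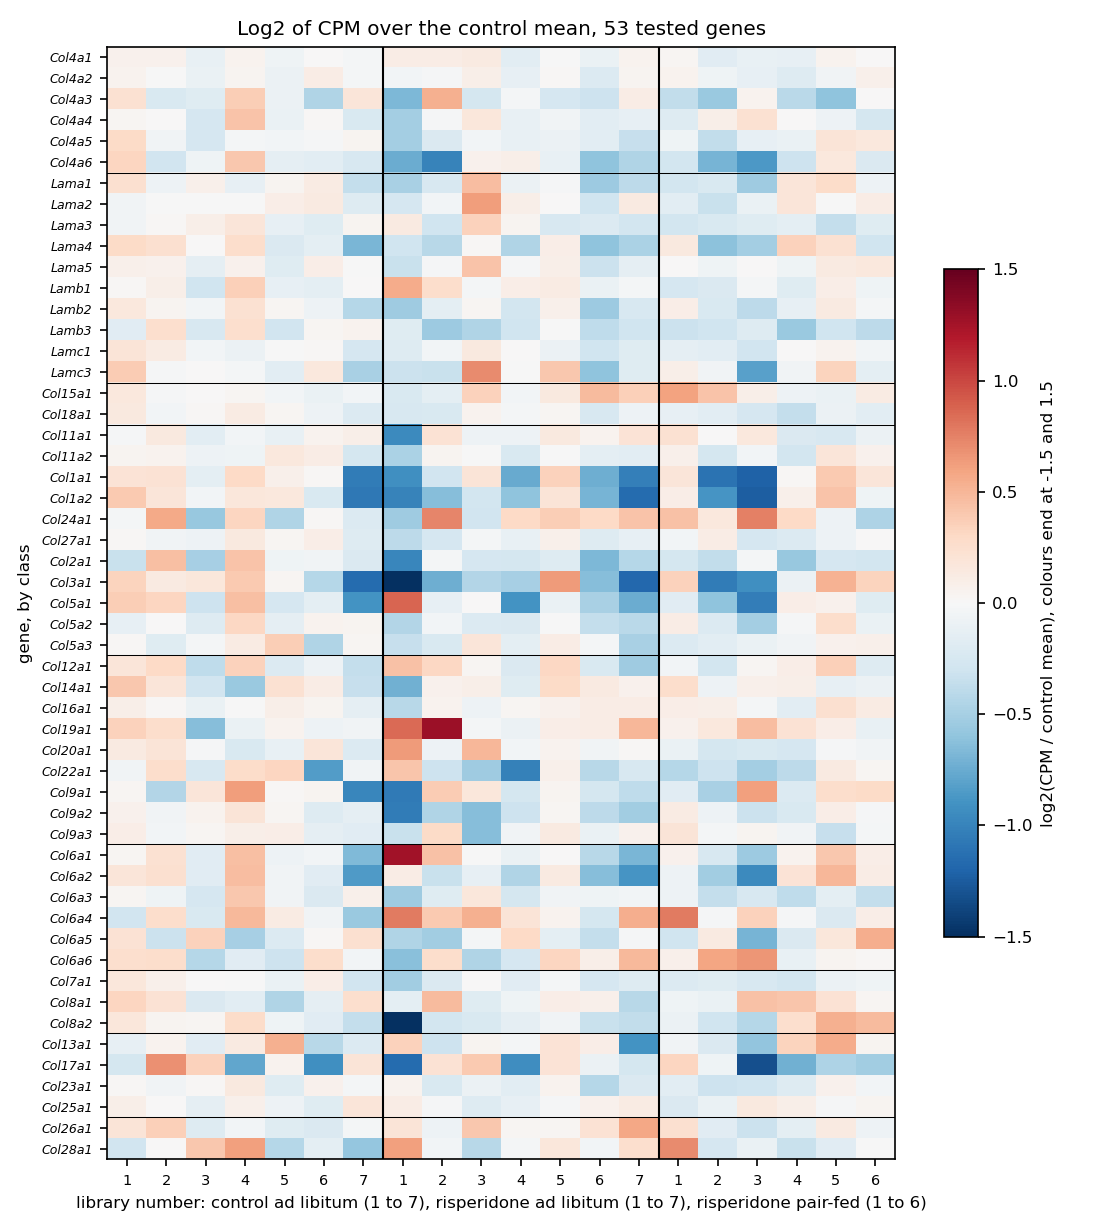
Log2 of CPM over the control mean for 53 genes (rows, by class) in 20 libraries (columns, by group). Col4a1 and Col4a2 are pale throughout. Col1a1, Col1a2 and Col3a1 are darkest blue in control library 7, RISP_Ad.lib libraries 1 and 7 and RISP_PF libraries 2 and 3.

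The classes also differ in how their genes are built. In fibrillar collagens 68.2% to 82.7% of the coding exons of the longest annotated coding sequence measured 45, 54, 99, 108 or 162 bases, sizes that code for whole repeats of a glycine and a pair of other residues. The share was 15.4% to 24.4% in the type IV chains and 0.0% to 3.6% in 10 laminins, which hold no such repeat. The type IV genes lie in head-to-head pairs in the GENCODE annotation of GRCm38: Col4a1 (chr8:11198423-11312826, minus strand) and Col4a2 (chr8:11312805-11449287, plus strand) have starts 21 bases apart, Col4a3 and Col4a4 on chromosome 1 have starts 72 bases apart, and Col4a5 and Col4a6 on the X chromosome 1309. The first exons of Col4a1 and Col4a2 overlap, and since the strand setting of the counting is not given in the sources used here, reads from that overlap cannot be assigned.

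Short stretches near the starts are shown for both kinds of gene. They are RefSeq and GRCm38 sequence written 5′ to 3′ on the plus strand, chosen for the steady type IV pair and for a pair of the genes with wide spread. Capitals mark 2 motifs: GGGCGG is known as the box bound by Sp1, and TATAAA is known from core promoters. The first covers the whole overlap of the Col4a2 and Col4a1 first exons (chr8:11312805-11312826), the second lies 205 to 183 bases before the RefSeq start of Col1a2 and in no annotated exon (chr6:4505413-4505435), and the third is the 250 bases before the start of Col3a1 (chr1:45311288-45311537).
Col4a2-Col4a1 start stretch: agtgcgcGGGCGGcgtctccaa
Col1a2 GC boxes: GGGCGGgtggctggggaGGGCGG
Col3a1: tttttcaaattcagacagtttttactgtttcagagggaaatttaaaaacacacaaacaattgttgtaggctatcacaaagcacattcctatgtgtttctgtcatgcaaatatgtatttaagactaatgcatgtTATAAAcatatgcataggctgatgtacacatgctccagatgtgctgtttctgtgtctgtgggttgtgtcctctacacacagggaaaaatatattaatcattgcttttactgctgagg
G and C make up 72.7% of the Col4a stretch, 87.0% of the Col1a2 stretch, which was chosen for its GGGCGG matches, and 35.2% of the much longer Col3a1 stretch, which holds 1 TATAAA and no GGGCGG or CCAAT. That TATAAA lies near the middle of the Col3a1 stretch and not next to the start of the gene. The stretches do not set the classes apart: over windows of 300 bases the median share of G and C was 63.3% in 5 windows of type IV chains and 61.3% in 8 of fibrillar collagens, against 52.7% in all windows of the table. Of the 55 genes, 40 had a window of 300 bases in the RefSeq table for GRCm38.p6, from 250 bases before the start to 50 after, in 44 windows. On either strand GGGCGG stood in 59.1% of those windows and 35.7% of all 32851 windows, CCAAT in 31.8% and 37.4%, and TATAAA in 11.4% and 13.6%. None of these motifs contains another, and a match describes letters and shows no binding site.

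Against control, no collagen or laminin gene passed the test on risperidone fed ad libitum. Of the 54 genes, 0 passed an adjusted p under 0.05 (edgeR quasi-likelihood test, Benjamini-Hochberg over 17893 genes), where 0.0615% of all genes did. At an unadjusted p under 0.05 there were 10 genes, or 18.5% of the 54 against 13.1% of all genes. Of these, 1 was higher and 9 were lower, where 7.14% of all genes were higher and 5.97% lower at that p. DESeq2 called 1 gene, Col9a2, and limma-voom 0. In 0 of the 54 genes did the groups fail to overlap, against 0.33% of all genes. The median log2 fold change was −0.10 over the 54 genes and 0.01 over all genes, and 38 of the 54 (70.4%, against 47.1% of all genes) lay below 0. Without RISP_Ad.lib libraries 1 and 3 the median was −0.11 and the count of calls 0.

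Col9a2, a fibril-associated chain that coats cartilage fibrils, had the smallest p. It ranged from 18.6 over a median of 21.7 to 24.4 CPM in control, from 10.3 over 15.6 to 21.8 on risperidone ad libitum and from 17.1 over 20.6 to 23.2 in pair-feeding. Of the 7 ad libitum risperidone libraries, 6 lay below every control library, and library 5, the highest of the group, lay above the control mean. The log2 fold change was −0.43 (SE 0.111, edgeR adjusted p = 0.135). It was −0.44 with DESeq2 (adjusted p = 0.0298) and −0.53 without RISP_Ad.lib library 5 (edgeR adjusted p = 0.0380), and both of these pass the threshold. RISP_Ad.lib library 1 was the lowest of all libraries, at 10.3 CPM. Without it the log2 fold change was −0.35 (edgeR adjusted p = 0.144), and it was −0.32 without libraries 1 and 3 (edgeR adjusted p = 0.136). The partner chain of Col9a2, Col9a3, had 11.2 ± 0.861 CPM in control (SD, n = 7) and 10.7 ± 2.15 on risperidone ad libitum (SD, n = 7).

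Lamb3, a beta chain of the laminin that anchors epithelium, ranged from 8.54 over 10.6 to 12.4 CPM in control and from 7.15 over 8.43 to 10.4 on risperidone ad libitum. All 7 libraries lay below the control mean, yet the groups overlapped, and the log2 fold change was −0.29 (SE 0.0958, edgeR adjusted p = 0.221). Col2a1, the main chain of cartilage fibrils, also lay below the control mean in 7 of 7 libraries, with 8.82 ± 1.83 CPM against 11.4 ± 2.96 (SD, n = 7 each), or −0.37 on the log2 scale (edgeR adjusted p = 0.299). Col19a1, a minor collagen that neurons make, was the 1 gene higher at an unadjusted p under 0.05, with 4.98 ± 1.97 CPM against 3.59 ± 0.733 (SD, n = 7 each), or 0.49 on the log2 scale (edgeR adjusted p = 0.287). RISP_Ad.lib library 2 had 8.71 CPM and library 1 had 6.47, and without library 2 the value was 0.29 (edgeR adjusted p = 0.447). Those 2 libraries also had the highest mean log2 CPM over the markers of cortex and hippocampus neurons, at 2.32 and 5.06, and the part of this in the Col19a1 value was not tested.

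Basement membrane and fibrillar genes both lay below 0 at the median. Over the 17 type IV and laminin genes the median log2 fold change was −0.08, with 13 of 17 below 0, and over the 11 fibrillar genes it was −0.14, with 10 of 11 below 0. At an unadjusted p under 0.05 there were 4 of the 17 (23.5%) and 3 of the 11 (27.3%), all lower, against 13.1% of all genes. Col4a1 was at 0.02 (95% interval −0.08 to 0.13), Col4a2 at −0.03 (−0.14 to 0.07) and Lamc1 at −0.09 (−0.23 to 0.05), all on the log2 scale. Lamb2 lay lower, at −0.22 (−0.44 to −0.003, edgeR adjusted p = 0.373). The intervals were wider in the chains of types I and III: Col1a2 was at −0.54 (−1.04 to −0.04, edgeR adjusted p = 0.335), Col1a1 at −0.39 (−0.93 to 0.15) and Col3a1 at −0.48 (−1.10 to 0.14), or −0.81 without RISP_Ad.lib library 5 (edgeR adjusted p = 0.188). Other fibrillar chains had narrower ones, such as Col27a1 at −0.14 (−0.29 to 0.01) and Col11a2 at −0.13 (−0.31 to 0.04). The fibroblast markers lay lower as well, with 16 of 16 below 0 and a median of −0.94, though 0 passed the test and 10 had an unadjusted p under 0.05. Endothelium markers had a median of 0.05 with 5 of 12 below 0, and pericyte markers −0.01 with 6 of 10 below 0. Those of vascular smooth muscle had −0.30 with 6 of 6 below 0. Lists of other cell types and regions had medians on both sides of 0, and 0 of their genes passed the test. Ependyma markers had a median of −0.34 with 5 of 5 below 0, and hypothalamus markers −0.37 with 8 of 9 below 0. Markers of cortex and hippocampus neurons had a median of 1.59 with 0 of 5 below 0. Medians were 0.34 for thalamus (0 of 4 below 0), 0.09 for choroid plexus (4 of 8) and −0.14 for tanycytes (4 of 6). They were −0.49 for pituitary (2 of 3), −0.24 for blood (4 of 5), −0.06 for astrocytes (3 of 4) and 0.16 for neurons (1 of 4). The part of these cell types and regions in the values of the collagen and laminin genes was not tested.

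Summed over the class, the type IV and laminin genes had 371 ± 22.9 CPM in control, 358 ± 30.6 on risperidone ad libitum (SD, n = 7 each) and 353 ± 23.1 in pair-feeding (SD, n = 6). The fibrillar genes summed to 188 ± 20.1, 166 ± 26.7 and 180 ± 19.2 CPM. Single libraries overlapped between groups: the fibrillar sums ran from 155 to 209.6 CPM in control, from 120.3 to 207 on risperidone ad libitum and from 156 to 204 in pair-feeding. Col25a1 was level in all groups, with 107 ± 9.68, 107 ± 8.65 and 107 ± 9.75 CPM, and Col23a1 had 51.2 ± 3.57, 46.5 ± 5.38 and 46.1 ± 4.76 CPM. On risperidone ad libitum the log2 fold changes ran from −0.28 to 0.34 in type VI chains, from −0.43 to 0.49 in fibril-associated and from −0.18 to 0.00 in transmembrane collagens.

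**Figure D5:**
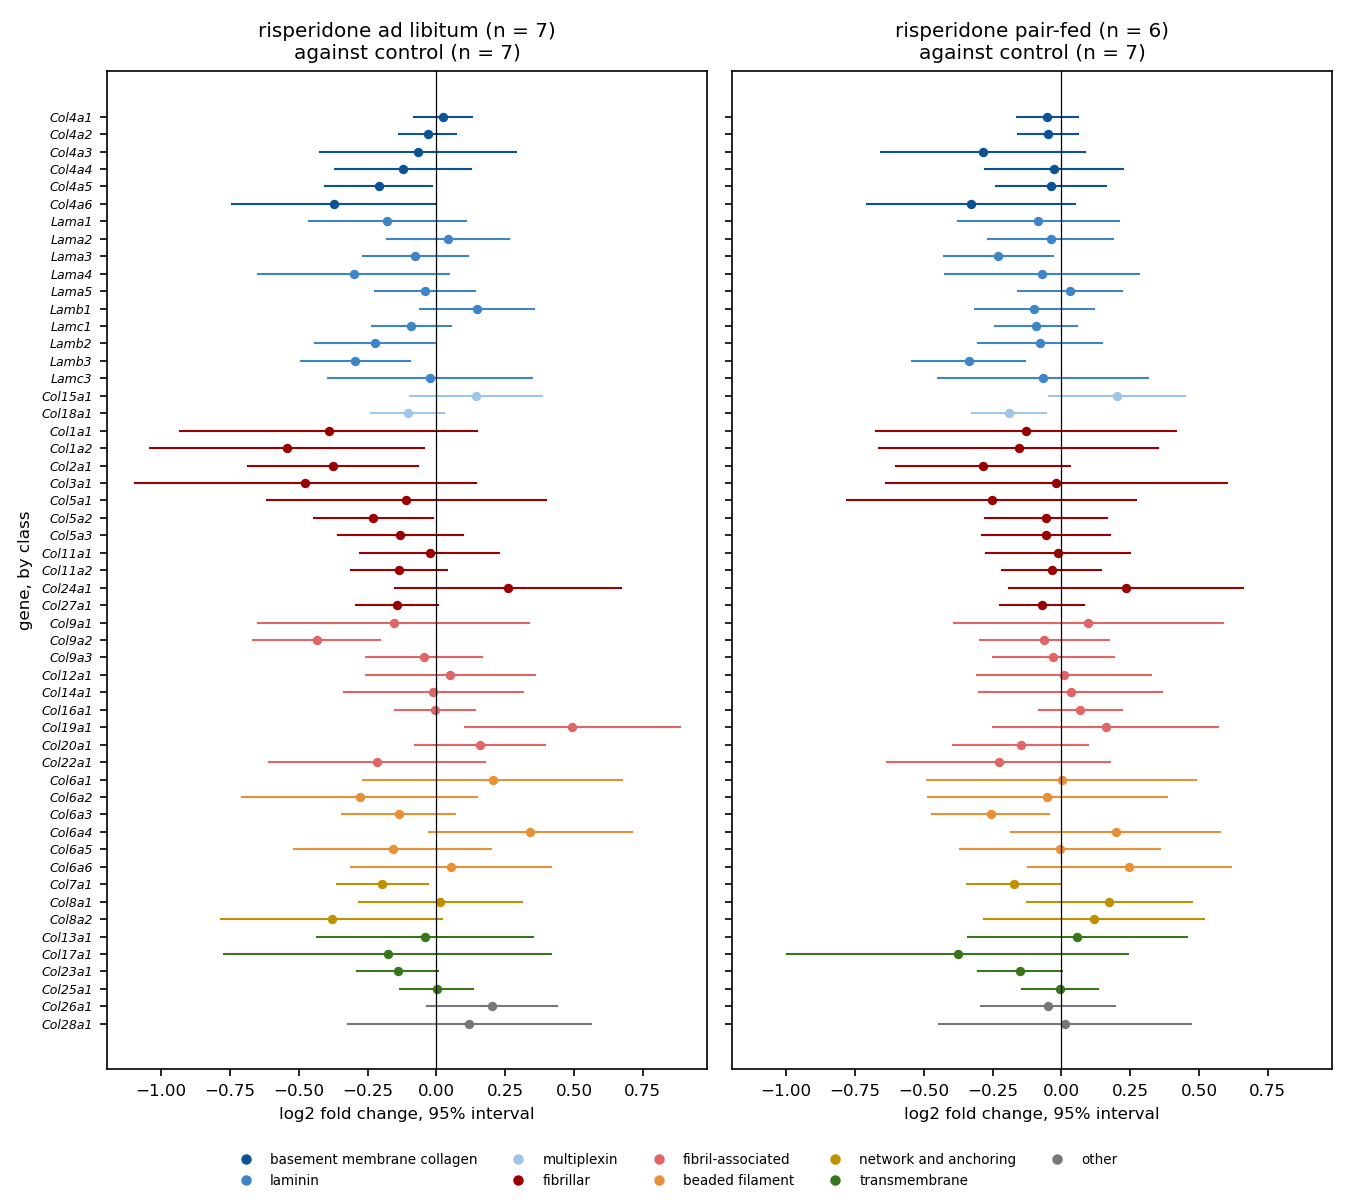
Log2 fold change with 95% interval of 53 genes, by class, on risperidone ad libitum (left, n = 7) and pair-fed (right, n = 6) against control (n = 7), from 1 edgeR fit. Intervals are narrow around 0 for Col4a1 and Col4a2 and wide for Col1a1, Col1a2 and Col3a1, and 0 genes pass the threshold in either comparison, which share the control libraries.

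Under pair-feeding, again 0 of 54 genes passed (edgeR, adjusted p under 0.05), where 0.486% of all genes did. There were 5 genes at an unadjusted p under 0.05, or 9.26% against 6.66% of all genes. These 5 were lower and 0 were higher, where 3.6% of all genes were lower and 3.06% higher at that p. DESeq2 and limma-voom called 0. Groups failed to overlap in 0 genes, against 1.2% of all genes. The median log2 fold change was −0.05, and 39 of 54 (72.2%, against 48.5% of all genes) lay below 0.

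Lamb3 had the smallest p of the 54 genes here, and this comparison shares the control libraries with the one before. Its pair-fed libraries ranged from 7.07 over 8.40 to 9.12 CPM, all 6 below the control mean of 10.4 and overlapping the lowest control library at 8.54, with a log2 fold change of −0.34 (SE 0.0990, edgeR adjusted p = 0.237). Col18a1 had 17.8 ± 1.19 CPM (SD, n = 6) against 20.3 ± 1.68 in control (SD, n = 7), or −0.19 on the log2 scale (edgeR adjusted p = 0.416). Col6a3, the long chain of type VI, had 10.7 ± 0.948 CPM (SD, n = 6) against 12.8 ± 2.05 (SD, n = 7), or −0.26 (edgeR adjusted p = 0.580). Lama3, the alpha chain partner of Lamb3, was at −0.23 (edgeR adjusted p = 0.625).

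Col4a1, Col4a2 and Lamc1 stayed within narrow intervals in pair-feeding as well. The log2 fold change was −0.05 in Col4a1 (95% interval −0.16 to 0.06), −0.05 in Col4a2 (−0.16 to 0.06) and −0.09 in Lamc1 (−0.24 to 0.06). Lamb2 had a wider interval, at −0.08 (−0.30 to 0.15). Over the 17 type IV and laminin genes the median was −0.07, with 16 of 17 below 0, against 48.5% of all genes. Col1a2 was at −0.15 (−0.66 to 0.35), Col1a1 at −0.13 (−0.67 to 0.42) and Col3a1 at −0.02 (−0.64 to 0.60), so that these 7 and 6 libraries left room for changes of either sign. The fibrillar median was −0.06, with 10 of 11 below 0. Of the 16 fibroblast markers 12 lay below 0, with a median of −0.06.

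Between pair-fed and ad libitum risperidone, 0 of 54 genes passed (edgeR, adjusted p under 0.05), against 0.397% of all genes. At an unadjusted p under 0.05 there were 5 genes, or 9.26% against 13.5% of all genes. In pair-feeding 2 were higher and 3 lower, where 6.09% of all genes were higher and 7.44% lower at that p. DESeq2 and limma-voom called 0. Groups failed to overlap in 0 genes, against 0.632%. The median log2 fold change was 0.02, and 25 of 54 lay below 0 (46.3%, against 51.6% of all genes). Of the 11 fibrillar genes 2 lay below 0, with a median of 0.09, and the 16 fibroblast markers were all above 0, with a median of 0.74.

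Col9a2 again had the smallest p, with 20.4 ± 2.47 CPM in pair-feeding (SD, n = 6) and 15.7 ± 3.49 on ad libitum feeding (SD, n = 7). All 6 pair-fed libraries lay above the ad libitum mean, and the log2 fold change was 0.37 (SE 0.116, edgeR adjusted p = 0.190). Without RISP_Ad.lib library 5 it was 0.47 (edgeR adjusted p = 0.0380) and the count of calls was 1. It was 0.29 without RISP_Ad.lib library 1 (edgeR adjusted p = 0.208) and 0.25 without libraries 1 and 3 (edgeR adjusted p = 0.303). Col8a2 was at 0.50 (edgeR adjusted p = 0.301), with RISP_Ad.lib library 1 at 1.33 CPM and the other 6 of its group at 3.71 to 4.63. Col20a1 was at −0.30 (adjusted p = 0.293) and Lamb1 at −0.25 (adjusted p = 0.321), and in both all 6 pair-fed libraries lay below the ad libitum mean. For these, RISP_Ad.lib library 1 was the highest of 20, at 8.04 CPM in Col20a1 and 25.2 CPM in Lamb1, and without it Col20a1 was at −0.20 (edgeR adjusted p = 0.481).

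With both risperidone groups averaged against control, 0 of 54 genes passed (edgeR, adjusted p under 0.05), against 0.33% of all genes. There were 8 genes at an unadjusted p under 0.05, all lower, or 14.8% against 7.82% of all genes, of which 4.27% were lower and 3.55% higher, and DESeq2 and limma-voom called 0. The groups failed to overlap in 0 genes, against 0.0671%. The median log2 fold change was −0.08, and 37 of 54 (68.5%, against 46.6%) lay below 0. Lamb3 came first, with all 13 risperidone libraries below the control mean and a log2 fold change of −0.32 (SE 0.0827, edgeR adjusted p = 0.164). Next came Col7a1, the chain of anchoring fibrils, at −0.18 (adjusted p = 0.481), Col18a1 at −0.15 (adjusted p = 0.482) and Col9a2 at −0.25 (adjusted p = 0.492).

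The rest of the pathway was looked at in 5 lists: 17 other parts of basement membranes, 17 partners of fibrous matrix, 33 proteins that fold and process collagen (31 tested), 18 receptors (17 tested) and 19 proteases and inhibitors (17 tested). On risperidone ad libitum 0 genes of any list passed the edgeR test, and the median log2 fold changes were −0.11, −0.35, −0.05, −0.09 and 0.00 in that order. At an unadjusted p under 0.05 there were 5, 5, 9, 6 and 2 genes, where 13.1% of all genes had such a p. Of the partners of fibrous matrix 14 of 17 lay below 0, against 47.1% of all genes. Of these partners Dcn, Lum, Ogn and Fmod also stand among the fibroblast markers. In pair-feeding 0 genes passed, with medians of −0.07, 0.00, −0.04, 0.04 and 0.00, and 3, 1, 2, 2 and 2 genes at an unadjusted p under 0.05, against 6.66% of all genes. Between the risperidone groups 0 genes passed, with medians of 0.07, 0.17, 0.02, 0.12 and −0.01 and 1, 2, 7, 6 and 2 genes at an unadjusted p under 0.05, against 13.5% of all genes.

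P4ha2, a subunit of the prolyl hydroxylase that lets collagen helices hold at body temperature, was the 1 gene of these lists past the threshold, and only with both risperidone groups averaged. In that comparison 0.33% of all genes passed. With each group set against control alone, the edgeR adjusted p was 0.135 on ad libitum feeding and 0.0870 in pair-feeding. It had 38.3 ± 2.27 CPM in control (SD, n = 7), 32.2 ± 3.08 on risperidone ad libitum (SD, n = 7) and 31.8 ± 3.07 in pair-feeding (SD, n = 6). For the average it fell by 0.26 in log2 units (SE 0.0554, edgeR adjusted p = 0.0341), with 13 of 13 risperidone libraries below the control mean. The call was lost in 14 of 20 fits that left out 1 library, with adjusted p from 0.00870 to 0.113: those without control libraries 1, 2, 3, 4, 6 or 7, RISP_Ad.lib libraries 2, 5 or 7 or RISP_PF libraries 1, 3, 4, 5 or 6. Other genes with the smallest p in their list did not pass: Tnxb, tenascin X, at −0.50 (adjusted p = 0.201) and Fras1, a protein of embryonic basement membranes, at 0.32 (adjusted p = 0.193) on risperidone ad libitum, and Tinagl1 at −0.37 (adjusted p = 0.177) and Adamts1, a matrix protease, at 0.42 (adjusted p = 0.265) in pair-feeding.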

How the data were processed

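The authors deposited 1 table with a column of raw, whole-number read counts for each of the 20 libraries, not normalized. STAR, featureCounts and DESeq2 and the builds GRCm38 and mm10 are named per the submitters' processing notes. No version, annotation release or strand setting is given in the sources used here. Of the 55471 genes, 55230 were matched by identifier to the GENCODE annotation of GRCm38, and the 241 others held 0.00354% of the counts.

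From these counts, edgeR 4.0.16 in R 4.3.3 fitted 1 quasi-likelihood model to all 20 libraries with a coefficient per group, after TMM scaling and filterByExpr with a minimum count of 10. The filter kept 17893 genes. Their common biological coefficient of variation was 11.26%, on 17 residual degrees of freedom. Tests were two-sided, with Benjamini-Hochberg adjustment over all genes tested in each of 4 comparisons and a threshold of 0.05. The SE of a fold change was its size over the square root of the F statistic. A prior count of 2 entered the log2 CPM of each library. The depth of 9748005 to 18606543 counts limits precision most in genes of a few counts, such as Col17a1. No pair of libraries in a group agreed within sampling noise. The fit was tested on simulated counts.

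The members and all lists were chosen with earlier results of these data known. Named in each comparison were the genes past the threshold or else the 4 with the smallest p and a mean of at least 1 CPM, the 4 basement membrane and 4 fibrillar genes with the highest level per length in control, and the highest gene of each other class. Of each pathway list the gene with the smallest p was eligible. Alternatives were RLE and upper quartile scaling, no low-count filter or a mean of at least 1 CPM, robust dispersions, DESeq2 1.42.0, limma-voom with quality weights in limma 3.58.1, a fit to the groups compared alone, replicate numbers as a block, and leaving out RISP_Ad.lib libraries 1 and 3 or each library in turn. Spans without RISP_Ad.lib library 1 were added after the data were seen. Protein sequences were not used here. For 1 laminin gene, which the counts over the class include, no values are reported here.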

Additional observations from a re-analysis of the deposited data

Results flagged for a closer look

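Among 25 collagen and laminin genes named with values, 75 groups of CPM were screened for a library far from the others of its group. In 5 of them the gap to the next library exceeded Dixon's 95% critical value, where chance gives about 1 in 20 groups. RISP_Ad.lib library 1 gave 4 of these. It was the lowest of its group for Col8a2 with 1.33 CPM, where the next library had 3.71. It was also the lowest for Col11a1 with 26.5 CPM, next to 48.4, and for Col16a1 with 37.6 CPM, next to 47.5. It was the highest for Col6a1 with 54.4 CPM, next to 30.8. The same library had a mean log2 CPM of 5.06 over the markers of cortex and hippocampus neurons and of 4.88 over those of hypothalamus, and the part of these in the 4 values was not tested. RISP_Ad.lib library 5 was the highest of its group for Col3a1 with 10.7 CPM, where the next library had 5.07.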

How the results depend on the processing

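The count of collagen and laminin genes past the threshold was 0 in all 4 comparisons, and it stayed 0 under every other setting with all 20 libraries except DESeq2 on risperidone ad libitum, which gave 1 (Col9a2). Leaving out each library gave 0 to 1 for risperidone ad libitum against control, 0 to 1 for pair-fed against ad libitum risperidone, and 0 to 0 for the other comparisons. Both counts of 1 were Col9a2 without RISP_Ad.lib library 5. With the replicate number as a block the count was 0 in all 4. Same-numbered libraries were on average no more alike than others: 2 of 19 such pairs correlated above 0.1, with a mean r of −0.0072 against 0.0010 for other pairs. In 0 libraries was the best correlation with their own number. The highest r was 0.304, in the 1 pair numbered 7, and what those libraries share was not tested.

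The number of genes called among all those tested, the background above, moved with single libraries. It was 0 to 35 in place of 11 on risperidone ad libitum, with 35 without RISP_Ad.lib library 1, and 66 to 166 in place of 87 in pair-feeding, 39 to 130 in place of 71 between the risperidone groups and 36 to 99 in place of 59 for their mean, each highest without that library. The block gave 1, 65, 48 and 45. Collagen and laminin genes at an unadjusted p under 0.05 numbered 5 to 18 in place of 10 on risperidone ad libitum, with 5 without control library 1 or RISP_Ad.lib libraries 1 or 7 and 18 without RISP_Ad.lib library 5. They numbered 2 to 7 in place of 5 in pair-feeding (2 without control library 4), 2 to 8 in place of 5 between the risperidone groups (2 without RISP_Ad.lib library 1, 8 without library 5, 3 without RISP_PF libraries 4 or 6) and 5 to 11 in place of 8 for their mean (5 without control library 4). Why these counts moved was not tested.

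Fold changes were refitted for 29 pairs of a gene and a comparison. With 1 library left out, 8 refits changed sign, all near 0: Col1a1 in pair-feeding ran from −0.26 to 0.017 and Col3a1 from −0.16 to 0.12. Under the other alternatives, Col4a1 on risperidone ad libitum went from 0.02 to −0.013 with limma-voom and to −0.015 without RISP_Ad.lib libraries 1 and 3. P4ha2 lost its call with upper quartile scaling (adjusted p = 0.0505), with the replicate block (0.0962) and with the risperidone libraries as 1 group (0.0603). The cause was not tested. Of 25 levels per length, 23 moved by more than the SD when coding length was used. At this depth Col10a1 was too low to test.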
